A study of Mus musculus with 4 samples.

Results

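Fatty acid and triglyceride synthesis was followed through 10 genes, Scd1, Scd2, Thrsp, Fasn, Acly, Acaca, Elovl6, Me1, Dgat2 and Srebf1, out of 18193 genes with a probe set of their own on the array. All 25 probe sets annotated to one of these symbols alone were taken, and 0 of the probe sets shared between several genes carry one of the symbols. The list was chosen on earlier results from these same 4 arrays, that is, on the signals of FoxO6-/- against WT in brain and in mandible and maxilla, so every value of these genes below is a description and none is a test. No threshold on the signal entered the choice. Thrsp, Scd1 and Dgat2 were set apart as fat-restricted genes, known for high expression in adipose tissue, liver or sebaceous gland, from 7 genes of broad expression. The class name comes from that knowledge, but the split was made with earlier results of these arrays known. In mandible and maxilla, FoxO6-/- and WT still read 2454 and 2312 for Scd1 and 1854 and 1196 for Dgat2. In the brain arrays, Thrsp and Scd1 were 11.2-fold and 4.88-fold lower in FoxO6-/- than in WT, whereas Scd2 and Elovl6 stood at nearly equal signals.

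The study asked how loss of the forkhead factor FoxO6 changes growth of the face. RNA came from newborn mice (postnatal day 0 in the sample labels, E18.5 in the study's text on the jaw arrays), with brain and with mandible plus maxilla separated by hand. The 4 groups were FoxO6-/- mandible and maxilla, WT mandible and maxilla, FoxO6-/- brain and WT brain, each with 1 array. In the FoxO6-/- allele a lacZ and neomycin cassette takes the place of the whole coding region in every cell. RNA of 4 animals was combined for a mandible and maxilla array, the methods mention heterozygotes among the mutant animals, and pooling of the brain RNA is not stated. The line was kept on a C57BL/6 background, and no source used here gives the sex of the animals. With 1 array per group, each comparison sets a single RNA sample against another, no SD can be given, and the number of arrays limits the precision.

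Values are MAS5 signals, a summary of each probe set's brightness on a linear scale, and their trimmed mean was 500.0 on every array. Signals under 101, the median over all arrays, were treated as lying below the floor. A gene entered a comparison when the mean of both signals reached the floor, and it was represented by its brightest probe set. Log2 ratios are given as FoxO6-/- over WT, and genes at least 2-fold apart were counted. Other probe sets of the same gene served as a check, and for 4927 genes the log2 ratios of the brightest pair differed with an SD of 0.42 in mandible and maxilla and 0.39 in brain. For Actb, the control signal at the 3' end was 3.37 times that at the 5' end in FoxO6-/- mandible and maxilla and 2.21 to 2.23 times elsewhere. With 0 probe sets named Foxo6, the deleted gene itself gave no check of genotype. The arrays labelled brain also held RNA of other head tissue: Col1a1 of bone and connective tissue had 9307 in FoxO6-/- and 11231 in WT there, and the skeletal muscle actin gene Acta1 had 19009 and 21462. The neuronal genes Neurod6 and Tbr1 were above the floor on the brain arrays alone. The enamel genes Ambn and Amelx were above it on the mandible and maxilla arrays alone. Other genes of these lists were not confined to 1 tissue. The neuronal gene Map2 had 1182 in FoxO6-/- and 1206 in WT mandible and maxilla, and the oral epithelium gene Krt14 had 2442 and 1476 in brain. Of 10 neuronal genes, 5 in FoxO6-/- and 4 in WT mandible and maxilla were below the floor. Of 10 genes of jaw bone, tooth and oral epithelium, 4 were below it on each brain array.

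Cells build fatty acids in the cytosol from citrate. ATP-citrate lyase (Acly) releases acetyl-CoA, acetyl-CoA carboxylase (Acaca) makes malonyl-CoA, fatty acid synthase (Fasn) joins these units into palmitate with NADPH that malic enzyme (Me1) helps to supply, and Elovl6 lengthens the chain. Stearoyl-CoA desaturases (Scd1, Scd2) place a double bond, and Dgat2 adds the last fatty acid of a triglyceride. Srebf1 encodes SREBP-1, a transcription factor that activates most of these enzyme genes, and Thrsp encodes Spot 14, a small protein induced by thyroid hormone and carbohydrate in tissues that make fat. In adipose tissue the pathway feeds lipid droplets, while in the newborn brain it supplies membrane and later myelin lipids.

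Upstream sequence is shown for Thrsp, the member with the lowest brain ratio, for Fasn, a broadly expressed enzyme gene, and for the regulator Srebf1. RefSeq promoter windows of build GRCm38.p6 were matched for 7 of the 10 genes, namely Thrsp, Fasn, Acly, Acaca, Elovl6, Me1 and Srebf1. The 250 bases before the start site are printed 5′ to 3′ on the gene's strand, from chr7:97417551-97417800 (minus strand) for Thrsp, chr11:120824548-120824797 (minus strand) for Fasn and chr11:60210472-60210721 (minus strand) for 1 of the 3 Srebf1 windows. Capitals mark CCAAT, the letters bound by NF-Y, and GGGCGG, the GC box, each on either strand.
Thrsp: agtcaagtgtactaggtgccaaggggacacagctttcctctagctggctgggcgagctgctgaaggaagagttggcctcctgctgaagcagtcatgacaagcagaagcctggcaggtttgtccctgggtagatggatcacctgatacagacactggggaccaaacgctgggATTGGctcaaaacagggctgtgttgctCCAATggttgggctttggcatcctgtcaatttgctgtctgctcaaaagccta
Fasn: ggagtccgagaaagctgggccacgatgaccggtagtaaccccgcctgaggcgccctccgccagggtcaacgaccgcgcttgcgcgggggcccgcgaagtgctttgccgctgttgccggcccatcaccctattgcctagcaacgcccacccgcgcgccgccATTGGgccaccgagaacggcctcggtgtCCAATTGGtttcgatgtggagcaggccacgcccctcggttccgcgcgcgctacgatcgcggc
Srebf1: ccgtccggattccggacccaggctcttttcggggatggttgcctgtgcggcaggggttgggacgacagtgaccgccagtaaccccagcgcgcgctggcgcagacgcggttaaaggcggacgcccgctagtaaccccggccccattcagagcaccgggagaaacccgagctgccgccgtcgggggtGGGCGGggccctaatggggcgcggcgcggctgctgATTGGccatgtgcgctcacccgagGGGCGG

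The Thrsp window held 2 CCAAT matches, starting 79 and 52 bases before the start site, and the Fasn window held 3, at 90, 62 and 59 bases, the last 2 of which overlap on opposite strands. The Srebf1 window held 1 CCAAT match at 30 bases and 2 GC boxes. The Acly window had 4 GC boxes and no CCAAT, and the windows of Elovl6 and Acaca held none of the letters searched. CCAAT occurs in 33.8% and GGGCGG in 32.7% of 32851 windows of this length. TCACNCCAC, the core of a sterol element, CACGTG and TATAAA, found in 1.05%, 6.02% and 12.4% of all windows, were not among the letters of any of the 10 member windows. A match is only a run of letters, and both a gene with a low brain ratio and one with a ratio closer to 0 carry CCAAT.

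In brain, 7 of the 10 genes had a lower and 3 a higher signal in FoxO6-/-, with a median log2 ratio of -0.54 against 0.05 over 12327 genes. At least 2-fold lower were 2 of them, Scd1 and Thrsp, and 0 were at least 2-fold higher. Over all genes the share at least 2-fold lower was 2.03% and at least 2-fold higher 1.13%. Of the 12327 genes, 5266 were lower and 7061 higher in FoxO6-/- by any amount. Because the list was chosen from this contrast, nothing is read from these counts. In bulk tissue, fewer cells of a type and less RNA per cell cannot be told apart. The 3 genes named fat-restricted had a median log2 ratio of -2.29, which is the value of Scd1, and the 7 named broadly expressed one of -0.32. The classes overlapped, with Dgat2 of the fat-restricted genes at -0.88 and Srebf1 and Acaca of the broadly expressed genes at -0.90 and -0.71. On WT brain 6 of the 10 genes reached their highest signal of the 4 arrays. The share of all genes that did so was not computed, and nothing is read from this count.

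Thrsp showed the widest range of all members. In brain its brightest probe set read 847 for FoxO6-/- and 9522 for WT, and in mandible and maxilla 424 for FoxO6-/- and 843 for WT. The WT brain array thus stood far above the other 3, which ran from 424 to 847, whereas all 4 spanned 22.4-fold. The brain log2 ratio was -3.49, the place 12 from the lowest among 12327 genes. A further probe set read 325 for FoxO6-/- and 3744 for WT brain (-3.53). The last Thrsp probe set was below the floor on every array, at 9.0 to 10.7.

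Scd1, the desaturase of adipocytes, sebaceous glands and liver, was likewise highest on the WT brain array. In brain its signal was 1883 in FoxO6-/- and 9189 in WT, and in mandible and maxilla it was 2454 in FoxO6-/- and 2312 in WT. Apart from WT brain the arrays lay within 1.30-fold. The brain log2 ratio was -2.29, at place 37 from the lowest, and the other Scd1 probe set read 138 against 432 (-1.64). Scd2, a close relative that lies near Scd1 on the same chromosome and is known as the main desaturase of mouse brain, behaved differently. Its signal in brain was 21154 in FoxO6-/- and 21021 in WT, and in mandible and maxilla 20940 and 19300. All 4 signals lay within 1.10-fold, and the brain log2 ratio was 0.01. The dimmer Scd2 probe sets gave 0.19 and 0.24 in brain. Signals are compared here within a probe set only.

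Dgat2 was lower in FoxO6-/- brain by less than 2-fold. Brain signals were 674 in FoxO6-/- and 1239 in WT, and those of mandible and maxilla were 1854 and 1196. FoxO6-/- was therefore the lower of the brain pair and the higher of the mandible and maxilla pair, with log2 ratios of -0.88 and 0.63. The dimmer Dgat2 probe set had the same signs with smaller ratios, -0.26 and 0.24.

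**Figure D1:**
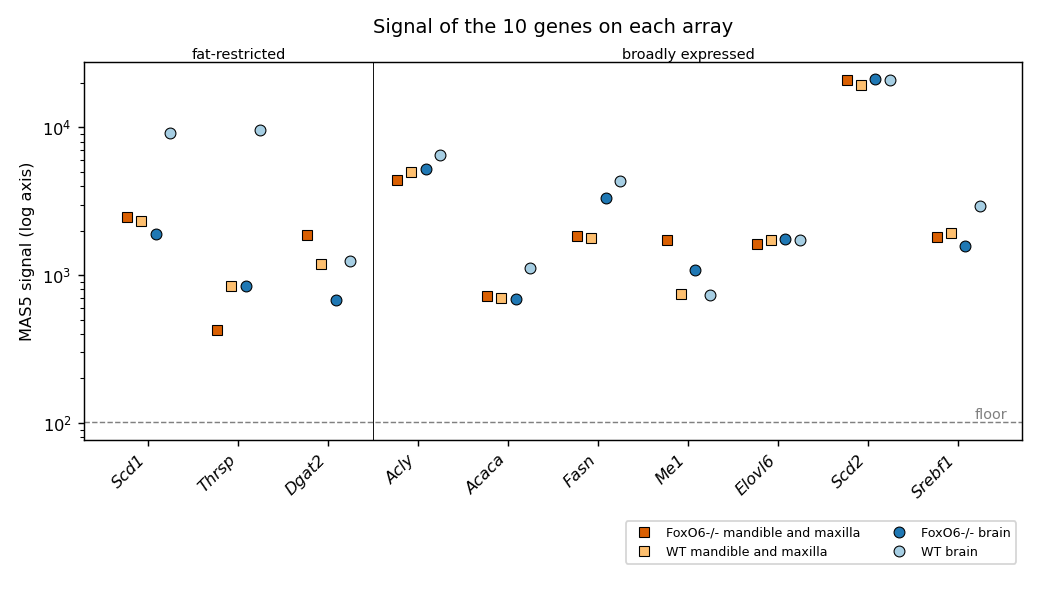
MAS5 signal (vertical axis, log scale) of the brightest probe set of each gene on the 4 arrays, 1 point per array, with squares for mandible and maxilla, circles for brain and a dashed line at the floor of 101. Scd1 and Thrsp lie near 9189 and 9522 on WT brain, far above their other 3 arrays, while Scd2 lies between 19300 and 21154 on all 4.

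Among the genes of the first steps, Acly had 5208 in FoxO6-/- and 6483 in WT brain. Its log2 ratio of -0.32 comes from a probe set whose suffix marks possible cross-hybridization, and the other probe sets above the floor gave -0.23 and 0.12. A further 3 Acly probe sets were below the floor in both tissues. Acaca had 685 against 1122, a log2 ratio of -0.71, and its dim probe set was below the floor. Fasn, with 1 probe set, had 3333 against 4305 and a log2 ratio of -0.37. The FoxO6-/- array was the lower of the pair for all 3 genes, by amounts mostly within the spread between probe sets of 1 gene, Acaca being the exception.

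Me1 was the member with the highest brain ratio. With the brightest probe set FoxO6-/- read 1089 and WT 736 (0.56), but the other gave 664 against 768 and -0.21, so that the 2 Me1 probe sets differ in direction. Elovl6 had 1767 against 1717 and a log2 ratio of 0.04, with -0.14 from a second probe set, and the last one was below the floor. The regulator gene Srebf1, measured by 1 probe set, had 1583 in FoxO6-/- and 2944 in WT brain, a log2 ratio of -0.90. On the mandible and maxilla arrays Srebf1 had 1823 and 1936, so WT brain was the highest of the 4 and the remaining arrays lay within 1.22-fold.

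In mandible and maxilla, the 10 genes were close to even between the genotypes, with 6 higher and 4 lower in FoxO6-/- and a median log2 ratio of 0.05 against -0.01 over 12186 genes. At least 2-fold higher was 1 gene, Me1, and 0 were at least 2-fold lower. Over all genes the share at least 2-fold higher was 0.591% and at least 2-fold lower 1.69%. Of the 12186 genes, 5940 were higher and 6246 lower in FoxO6-/- by any amount. The split of the 2-fold calls over all genes, 25.9% higher, was 44.2% after quantile normalization. The fat-restricted and the broadly expressed genes had medians of 0.09 and 0.04.

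Me1 had 1728 on the FoxO6-/- and 743 on the WT mandible and maxilla array, a log2 ratio of 1.22 and 2.32-fold. The other Me1 probe set read 879 against 678 (0.37), which is the same direction at a smaller size. Thrsp fell just short of the 2-fold limit at -0.99, and its second probe set gave 114 against 262 and -1.21, so both placed the FoxO6-/- array lower. Taken as the mean of all probe sets above the floor, Thrsp had -1.10 and Me1 0.80, which reverses which of these 2 genes passes the limit. The FoxO6-/- array of this pair also had the highest 3' to 5' control ratio, and the part of that in the ratios was not tested.

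Dgat2, given above, was higher in FoxO6-/- at 0.63, by less than 2-fold, and the other 7 genes were nearer to even in mandible and maxilla. Scd1 had 0.09 and -0.10 from its 2 probe sets, and Scd2 had 0.12, -0.28 and -0.16. Fasn was at 0.04 (1833 against 1787), Acaca at 0.06 (726 against 697) and Srebf1 at -0.09. Acly gave -0.19 (4366 against 4995), 0.07 and 0.50, and Elovl6 gave -0.08 (1632 against 1728) and -0.20. Apart from the 0.50 of a dim Acly probe set, these lie within the spread between probe sets of 1 gene. Over all probe sets of the 10 genes above the floor, 19 in each tissue, FoxO6-/- was lower for 13 in brain and for 9 in mandible and maxilla. Several of these probe sets measure the same gene. The share over all probe sets on the array was not computed, and nothing is read from these counts.

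**Figure D2:**
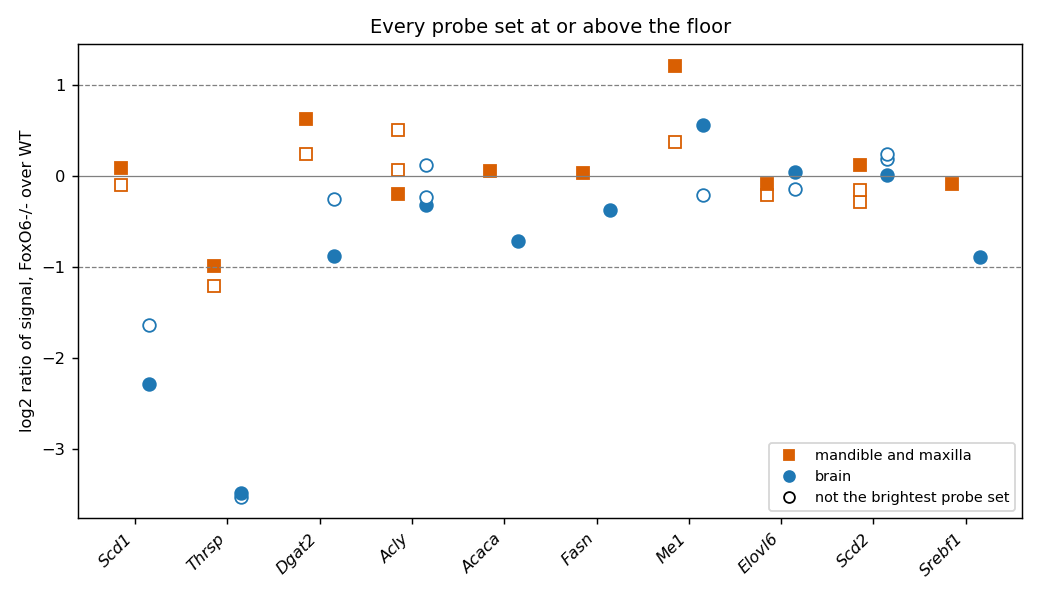
FoxO6-/- over WT as log2 (vertical axis) for each of the 19 probe sets per tissue at or above the floor, with squares for mandible and maxilla, circles for brain, filled symbols for the brightest probe set of a gene and dashed lines at 2-fold. The brain points of Thrsp lie at -3.49 and -3.53 and those of Scd1 at -2.29 and -1.64, while Me1 alone has a filled point above 2-fold, at 1.22 in mandible and maxilla.

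Between the tissues, 3 of the 10 genes differed by more than 2-fold in WT. The share of all genes that did so was not computed, and nothing is read from this count. In WT, mandible and maxilla over brain gave log2 ratios of -3.50 for Thrsp, -1.99 for Scd1 and -1.27 for Fasn. In FoxO6-/- the same comparison gave -0.998 for Thrsp, 0.38 for Scd1 and -0.86 for Fasn. Fasn was thus higher in brain in both genotypes, whereas Scd1 was higher in brain in WT and slightly lower there in FoxO6-/-. Dgat2 had -0.05 in WT and 1.46 in FoxO6-/-. Scd2 and Elovl6 lay between -0.12 and 0.01 in both genotypes.

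Markers of adipocytes moved with Thrsp and Scd1 on the brain arrays. Of 25 listed genes of white and brown adipocytes 22 had a probe set and 19 were above the floor in brain. All 19 were lower in FoxO6-/-, 18 by 2-fold or more, and the median log2 ratio was -3.06. Their summed signal over the 22 genes was 20096 in FoxO6-/- and 109318 in WT brain, 5.44-fold higher in WT.

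Ucp1, the uncoupling protein that defines brown fat, had 405 in FoxO6-/- and 8381 in WT brain, a log2 ratio of -4.37. Cidea, a lipid droplet protein gene of brown fat, had 728 against 10248 and -3.82. Adipoq, which encodes the hormone adiponectin, had 1368 against 12305 and -3.17, and the adipogenic regulator gene Pparg had 121 against 1001 and -3.04. Also at least 2-fold lower were the mitochondrial subunit genes Cox7a1 (-3.57) and Cox8b (-3.09) and the lipase genes Pnpla2 (-3.06), Lipe (-2.39) and Lpl (-1.47). Mrap (-3.64), Gpd1 (-3.59) and Cd36 (-2.42) were also among these genes. So were Fabp4, a fatty acid carrier gene (-2.05), Retn, which encodes resistin (-1.97), and the adipogenic factor gene Cebpa (-1.88). Cidec, Otop1 and Klb lay below the floor in FoxO6-/- brain, and with such signals raised to it 18 genes were still at least 2-fold lower and the median was -2.73. The exception was Ppargc1a, a coactivator gene also used in neurons, with 725 against 832. Fat markers were thus present on both brain arrays and higher on the WT array. There 21 of the 22 genes reached their highest signal, and the share of all genes that did so was not computed.

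On the mandible and maxilla arrays several defining fat markers were near 0. Adipoq had 29.6 and 10.5, Ucp1 4.5 and 1.6 and Cidec 2.91 and 3.41 in FoxO6-/- and WT, all far under the floor. In total 10 of the 22 genes were below it on each array, and the summed signals were 18961 and 17910. Of the 12 genes above the floor 0 were 2-fold apart, and their median log2 ratio was 0.09. Among these 12 were Fabp4 with 6178 and 5239, Lpl with 5291 and 5294 and Cidea with 402 and 328. Cox7a1 had 1076 and 1516, and Cox8b had 2686 and 2555. The lowest log2 ratios were -0.49 for Cox7a1 and -0.45 for Gpd1, and the highest were 0.78 for Cebpa and 0.40 for Elovl3. The part of fat tissue in the brain ratios of Thrsp, Scd1 and the other members was not tested.

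**Figure D3:**
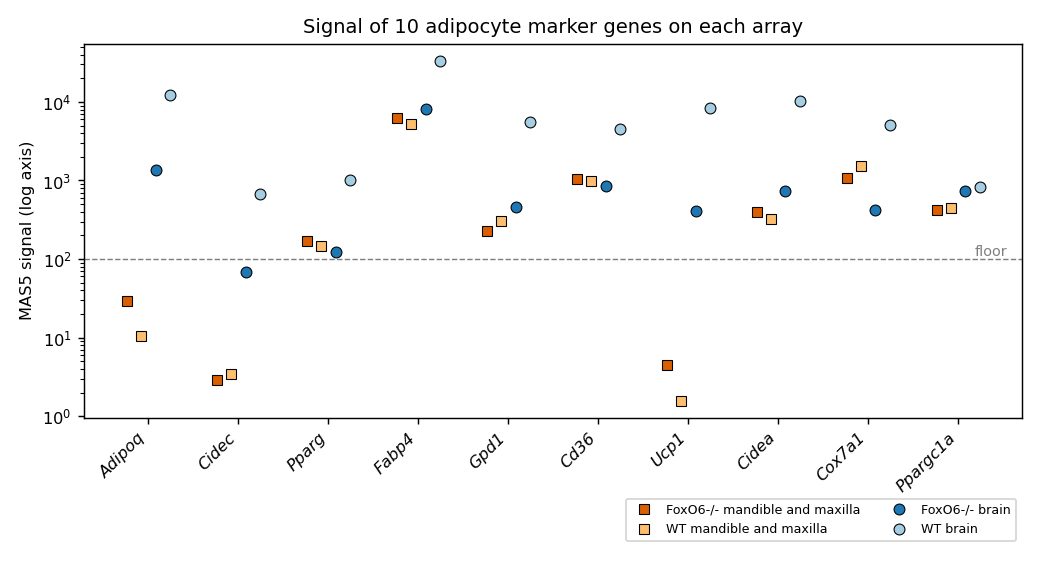
MAS5 signal (vertical axis, log scale) of 10 of the adipocyte marker genes on the 4 arrays, with squares for mandible and maxilla, circles for brain and a dashed line at the floor of 101. WT brain is highest for all 10 genes shown, with Ucp1 at 8381, and Adipoq, Cidec and Ucp1 lie under the floor in mandible and maxilla.

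The genes whose signals over the 4 arrays followed the members most closely were sought among 12569 genes with a mean above the floor. Likeness was the distance between log2 signals centred on their mean over the 4 arrays, a pattern set mainly by the WT brain array, and signals below the floor were raised to it first. Nearest to Scd1 were Mcrip2 at 0.05, the fatty acid transporter gene Cd36 at 0.16, the mitochondrial fatty acid oxidation genes Acadvl at 0.21 and Eci1 at 0.31, and Ephx2, an epoxide hydrolase gene, at 0.23. Cd36 had 840 in FoxO6-/- and 4510 in WT brain, against 1060 and 978 in mandible and maxilla. Nearest to Thrsp was Gpd1, the glycerol phosphate dehydrogenase gene that supplies the triglyceride backbone, at 0.53, with 465 against 5582 in brain. It was followed by Adig, Scgb3a1, Mrap and Slc36a2. Adig and Mrap were below the floor in mandible and maxilla, so their likeness to Thrsp rests on the brain arrays.

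Further enzymes of fatty acid synthesis and elongation were mostly close between the genotypes. Of 31 listed genes 28 had a probe set and 26 were above the floor in each tissue. In brain, 16 were lower and 10 higher in FoxO6-/-, with a median log2 ratio of -0.04, and 2 were at least 2-fold lower. These were Acacb, the carboxylase form of oxidative tissues, with 102 against 559 and -2.45, and Acss2, which makes acetyl-CoA from acetate, with 529 against 1226 and -1.21. The second Acss2 probe set gave -0.98. At the other end were Acsl6, an acyl-CoA synthetase gene of brain, with 0.41 and the dehydratase gene Hacd3 with 0.33. In mandible and maxilla the median was 0.08. Oxsm, of mitochondrial fatty acid synthesis, had 120 against 320 and -1.42 there, while the elongase genes Elovl7 and Elovl4 had 0.65 and 0.58 and Me2 had -0.88.

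Triglyceride synthesis enzymes included lower brain values for some members. All 15 listed genes had a probe set and 12 were above the floor in each tissue. In brain the median log2 ratio was -0.28, with 8 lower and 4 higher. At least 2-fold lower were 3 genes: Agpat2, the acyltransferase gene required for adipose tissue, with 372 against 3211 and -3.11, Dgat1, the partner of Dgat2 in the last step, with 499 against 1366 and -1.45, and Gpat3 with 73.8 against 178. The lower Gpat3 signal lay below the floor, and raised to the floor it gave -0.82, which left 2 genes at least 2-fold lower. Pnpla3, a lipid droplet gene activated by SREBP-1, ran the other way, with 318 against 170 and 0.90, and Agpat4 had 0.53. In mandible and maxilla the median was 0.23, with 9 higher and 3 lower, and Pnpla3 had 472 against 126 and a log2 ratio of 1.91. Agpat5 had 0.47 there, Agpat3 -0.17 and Lpin2 -0.15. Agpat2, Gpat3 and Pnpla3 each have 1 probe set, and a second one of Dgat1 was below the floor.

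Regulators of lipid synthesis other than Srebf1 were nearly even, with a median of -0.11 over 20 of 22 listed genes in brain and of -0.05 over 19 in mandible and maxilla. Ppargc1b, a coactivator of SREBP and of mitochondrial genes, was the 1 gene at least 2-fold lower in brain, with 477 against 1361 and -1.51, and it had -0.63 in mandible and maxilla. Mlxipl, the carbohydrate response factor gene, had -0.69 in brain. The SREBP processing genes Mbtps2 and Insig2 had 0.24 and 0.22 there. Insig1, itself an SREBP target, had -0.52 in brain and -0.33 in mandible and maxilla, where Akt2 had 0.62 and Mlx 0.24.

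Cholesterol synthesis genes, which share SREBP control through Srebf2, were at least 2-fold apart in neither tissue. Of 22 listed genes 17 had a probe set, all above the floor. In brain 13 were higher and 4 lower in FoxO6-/-, with a median log2 ratio of 0.16, and 0 were at least 2-fold apart. Hsd17b7 and Lss had 0.29 and 0.26, and Dhcr7, which makes cholesterol from its last precursor, had 543 against 916 and -0.75, with Stard4 at -0.28. In mandible and maxilla the median was -0.04, with Dhcr7 at -0.73, Fdps at -0.37, Pmvk at 0.16 and Msmo1 at 0.14.

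**Figure D4:**
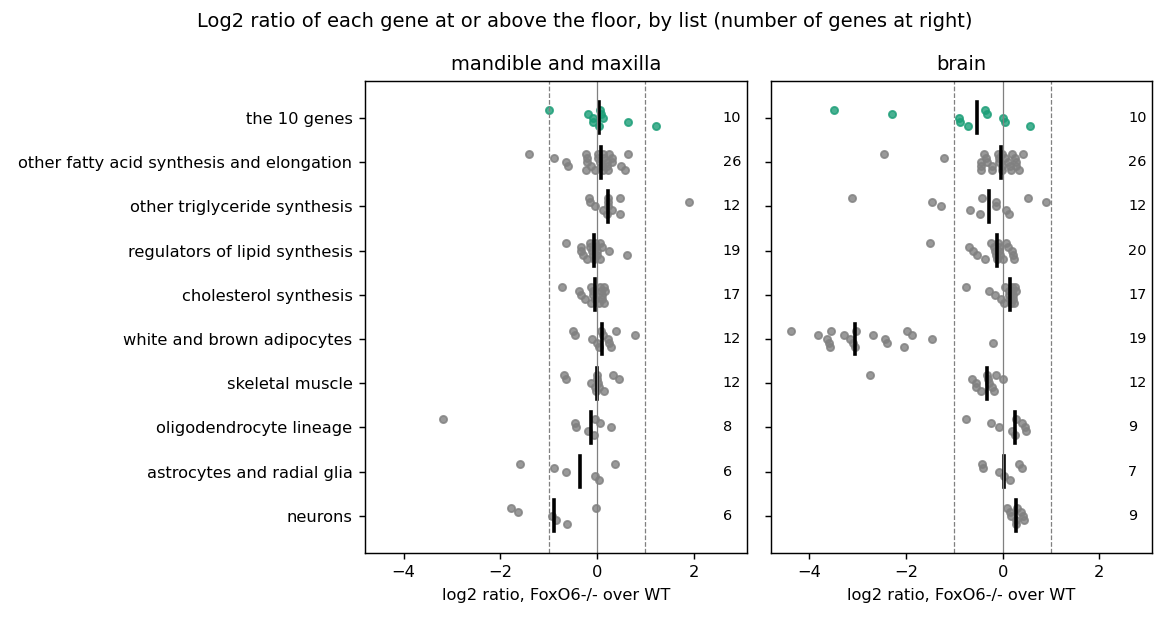
FoxO6-/- over WT as log2 (horizontal axis) for each gene at or above the floor in mandible and maxilla (left) and brain (right), with 1 row per list, 1 point per gene, black bars at list medians, dashed lines at 2-fold and the number of genes at the right. In brain the adipocyte genes have a median of -3.06, the 10 synthesis genes spread from -3.49 to 0.56, and cholesterol synthesis genes have a median of 0.16.

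Other cell types that a head dissection can hold were less uneven between the brain arrays. Skeletal muscle genes had a median log2 ratio of -0.32 over 12 genes in brain and summed signals of 81514 in FoxO6-/- and 99937 in WT, with Mb, which encodes myoglobin, at 111 against 743 and -2.74. Neuronal genes were higher for 9 of 9, with a median of 0.29. Oligodendrocyte lineage genes, which mark cells that later make myelin lipid, had 0.27 over 9 genes, and astrocyte and radial glia genes 0.04 over 7. Genes of jaw bone, tooth and oral epithelium had 0.31 over 6 genes. Of the hepatocyte genes only Ttr, which choroid plexus also expresses, was above the floor in brain, with -0.40, and Far2 and Krt79 of the sebocyte and skin lipid list had 0.12 and 0.21.
In mandible and maxilla the lists of glia and neurons were lower in FoxO6-/-, with medians of -0.13 for the oligodendrocyte lineage, -0.35 for astrocytes and radial glia and -0.90 for neurons. At least 2-fold lower there were the radial glia gene Fabp7 (-1.59), the neuronal genes Elavl3 (-1.77) and Snap25, and Olig1 of the oligodendrocyte lineage. The FoxO6-/- signals of Olig1 and Snap25 were below the floor, and raised to it they gave -1.36 and -0.97, the latter under 2-fold. Skeletal muscle had -0.01. Genes of jaw bone, tooth and oral epithelium had 0.52, with the enamel gene Enam at 1.41, the sebocyte and skin lipid list 0.32 over 4 genes, and Alb of the hepatocyte list 0.81. The part of these tissues in the Me1, Dgat2 and Thrsp values was not tested.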

How the data were processed

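RNA was hybridized to Affymetrix GeneChip mouse arrays, 1 array for each of 2 tissues and 2 genotypes. The deposited intensity of each of 45101 probe sets is the MAS5 signal that the authors computed and scaled, on a linear scale. No source used here gives its version. The trimmed mean, with 2% left out at each end, was the same on all arrays, so no further normalization was applied.

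Probe sets were named from the platform annotation: 34945 carry 1 gene, 932 several and 9160 none, beside 64 controls. Groups were taken from sample titles. The floor was the median signal of probe sets other than controls (101). Each gene took its brightest probe set, and genes whose mean over the compared pair reached the floor entered a comparison. With 1 array per group no test was run within a tissue. The study's methods name limma, and such a fit over both tissues was not run on genes chosen from these arrays. Each list was described by counts and medians.

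The 10 genes, the 12 other lists, their split and the alternatives were chosen with earlier results of these data known. From each lipid list the text names the 2 highest and 2 lowest ratios per tissue, and from every list the genes at least 2-fold apart. Other extremes of the cell type lists, which the rule also covers, are given through their medians, except for adipocytes in mandible and maxilla. Further genes were chosen after their values were seen. Raising low signals of the other lists to the floor was added after seeing the data. Elovl3 and Scd3 are in 2 lists each. The FoxO6-/- over WT ratios, medians and counts of the 10 genes, and the 2-fold counts over all genes, were recomputed under other settings. These were the mean of all probe sets, gene-specific probe sets only, quantile normalization and centring on the median. The floor was also removed, placed higher (524, the 75th percentile) or used to replace lower signals. The other lists, the ratios between tissues and the nearest genes were not recomputed under these settings, apart from the raised signals of the lists. The procedure was run on simulated data in which all probe sets of a changed gene changed alike and noise was small. That run checks the calculation and not the precision of ratios from single arrays. Scripts ran in Python 3.11.15 using pandas 2.3.3, scipy 1.17.1 and numpy 2.4.6.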

Additional observations from a re-analysis of the deposited data

Results flagged for a closer look

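Scd1 and Dgat2 had opposite directions in the tissues and log2 ratios at least 1 apart. For Scd1 the brain ratio minus that of mandible and maxilla was -2.37, from -2.29 and 0.09, and the second Scd1 probe set was lower in both tissues (-1.64 and -0.10). For Dgat2 the difference was -1.51, from -0.88 and 0.63, and the dimmer Dgat2 probe set had the same signs with -0.26 and 0.24. Each tissue has 1 array per genotype, so these differences were not tested. Fat marker genes were lower on the FoxO6-/- brain array, with a median of -3.06, and had a median of 0.09 in mandible and maxilla.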

How the results depend on the processing

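With no replicate arrays, values were compared between settings by whether they moved by more than the SD between probe sets of 1 gene, and counts by a factor of 1.5. Of 70 alternative values of the medians and counts of the 10 genes 68 stayed within these limits. The brightest probe set of every member had no signal under the floor, and its mean in each tissue was above the higher floor. The settings that changed only the floor therefore could not move these values or those of single genes below. Centring on the median shifted all ratios of a tissue alike. With the mean of all probe sets the genes at least 2-fold lower in mandible and maxilla were 1 instead of 0 and those at least 2-fold higher 0 instead of 1, because dimmer probe sets enter the mean. Of 138 alternative values of single genes 137 stayed within the limits, the other being Me1 in mandible and maxilla (0.80 with that mean). In brain 2 genes were at least 2-fold lower under every setting run, with Thrsp between -3.53 and -3.49 and Scd1 between -2.35 and -1.96. The median of the fat-restricted genes lay between -2.35 and -1.96 and that of the broadly expressed genes between -0.32 and -0.11. No value that was 2-fold apart changed sign. Srebf1 has no probe set with a gene-specific suffix and no value in that setting. Log2 ratios of single arrays near the floor are the least precise. Over all genes, counts at least 2-fold apart moved more. Without a floor 1432 were lower and 1415 higher in mandible and maxilla, and 1314 and 1515 in brain. With the higher floor the counts were 45 and 24, and 111 and 35. After quantile normalization 123 genes were higher in mandible and maxilla, against 72 in the report.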
